A study of Mus musculus with 4 samples.

Results

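The genes described here encode the signalling chains of the T cell receptor and the kinases and adaptors that act directly behind them. They were taken by name from the deposited gene table as Cd3d, Cd3e, Cd3g, Cd247, Zap70, Lck, Fyn, Lat and Lcp2, which makes 9 of its 52636 genes. The values are FPKM, reads scaled by gene length and library total. A mean of 1 FPKM or more was needed to enter the test, and all 9 were among the 10562 genes that had it. RNA was sequenced from C57BL/6 mouse Th17 cells made in culture, with 2 libraries of the PP2A WT genotype and 2 of PP2A cKO, which is read here as a conditional knockout of the phosphatase PP2A. Both genotypes had the same culture. Naive T cells and irradiated antigen presenting cells were grown together for 2 days, with stimulating CD3 and CD28 antibodies at 2 µg/ml each and blocking IL-4 and IFNγ antibodies at 10 µg/ml each. The polarizing cytokines were IL-6 at 20 ng/ml and TGFβ1 at 2 ng/ml. They then received PMA (50 ng/ml) and ionomycin (500 ng/ml) for 4 h. The labels name neither the PP2A subunit deleted, nor the Cre line, the age of the mice, or how mice and cultures were separated between libraries, so every p below measures only the spread between these libraries. The series asks whether Th17 cells need PP2A to differentiate.

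The antigen-binding chains of the T cell receptor have almost no cytoplasmic part and signal through partner chains. These are CD3γ, CD3δ and CD3ε and the CD247 (ζ) homodimer, whose tails carry tyrosine motifs called ITAMs. After ligation the Src family kinase Lck, with Fyn, phosphorylates the ITAMs, ZAP-70 docks on them and is activated, and ZAP-70 then phosphorylates the adaptors LAT and SLP-76 (Lcp2), on which the calcium and Ras branches assemble. PMA and ionomycin start signalling downstream of these proteins, by activating protein kinase C and raising calcium.

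The FPKM values rested on 18517487 to 20387948 gene-assigned reads per library, and on 1475 to 16697 reads per member and library, a counting error of at most 2.6%. Ppp2ca, the main catalytic subunit gene of PP2A, had 42.2 and 50.1 FPKM in WT and 41.8 and 34.5 in cKO (limma, adjusted p = 0.36), and the scaffold gene Ppp2r1a was not called either (adjusted p = 0.91). Gene totals of PP2A therefore did not check the labels, and all directions rest on them. Across tested genes the WT replicates had a Pearson correlation of 0.9929 and the cKO replicates one of 0.9852. A trend with transcript GC content in cKO replicate 1 is given beside Cd3g, Zap70, Lck and Lat, and a GC-corrected fold change also beside Cd247. Markers of other cells were low in every library. The sum of 10 B cell genes was 9.28 to 10.2 FPKM in WT and 5.71 to 5.9 in cKO, with 8 of the 10 below 1 FPKM throughout. Most of that sum was 1 gene, Ighm, with 7.02 and 8.35 FPKM in WT and 4.05 and 4.29 in cKO. The sum of 10 myeloid genes was 2.31 to 2.6 and 1.7 to 2.18 FPKM, that of 6 NK cell genes 0.678 to 1.07 and 0.906 to 1.17, and that of 6 CD8 and γδ T cell genes 7.7 to 8.63 and 9.61 to 10.5. Most of the last sum was Cd8b1, with 7.06 and 7.91 FPKM in WT and 9.03 and 9.84 in cKO. The 5 other genes of that list, Cd8a among them, were below 1 FPKM throughout. The part of such cells in the values below was not tested. The 6 Th17 markers summed to 3835 to 4175 FPKM in WT and 2960 to 3065 in cKO.

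No member passed the test over all genes (limma on log2(FPKM + 1), Benjamini-Hochberg adjusted p under 0.05), by which 0.814% of the 10562 tested genes were called higher and 0.256% lower in cKO. At an unadjusted p under 0.05, 3 members passed (Zap70 and Cd247 lower, Cd3g higher in cKO), where 19.8% of all tested genes did. Run on reads worked back from FPKM and gene length, limma voom called 1 member, Zap70, lower, with a background of 3.33% called lower and 2.52% called higher. With 1 cKO library left out, the spread comes from the close WT pair alone and the lone cKO library is taken to vary like it. Without cKO replicate 2, 5 members passed (Cd3d, Cd3g, Cd3e, Cd247 and Zap70), as did 28.4% of all tested genes, and without either WT library none did. Both cKO libraries lay above both WT libraries for 5 members (Cd3d, Cd3g, Lck, Fyn and Lcp2), an order found in 27.2% of tested genes, and below for 3 (Cd3e, Cd247 and Zap70), found in 28.7%. Lat was the member whose genotypes overlapped. The members' median log2 fold change was 0.07, against 0.00 over all tested genes. Their FPKM summed to 1097 and 1096 in WT and 1030 and 1108 in cKO. In RNA from whole cultures, fewer cells that express a gene and less RNA per cell cannot be told apart.

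**Figure D1:**
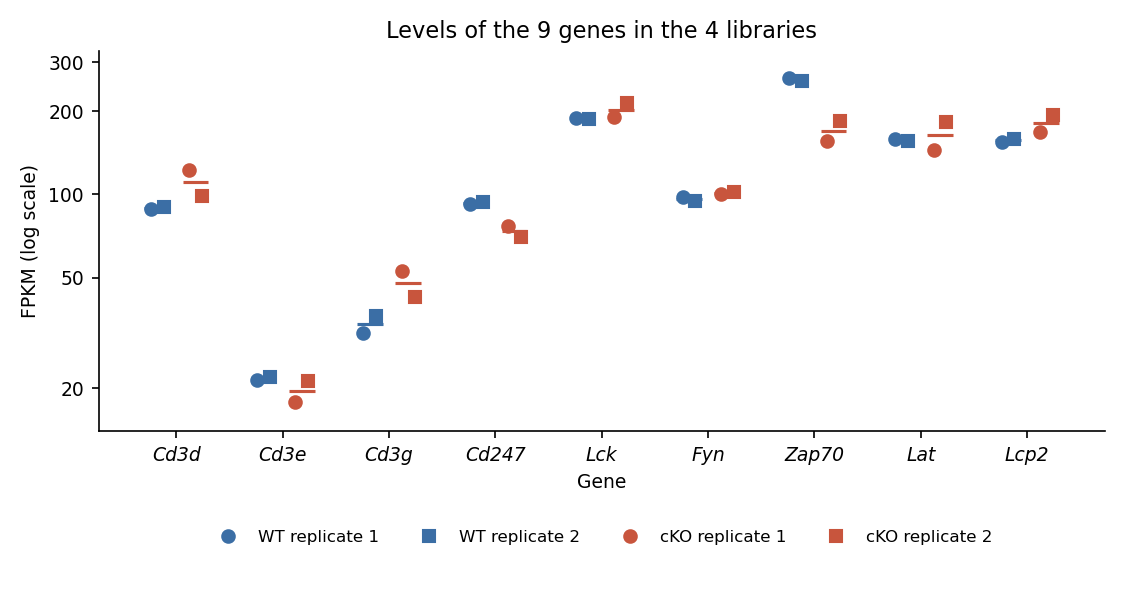
FPKM (y axis, log scale) of the 9 members by library (2 WT, 2 cKO), where a bar shows the mean of a genotype. Zap70 has 264 and 257 in the WT libraries against 156 and 184 in cKO, while the Lat libraries of the 2 genotypes overlap.

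The 3 CD3 genes lie side by side on chromosome 9 (GRCm38). Cd3g (44969572 to 44980431, minus strand) and Cd3d (44981786 to 44987339, plus strand) are transcribed away from each other from starts 1355 bases apart, and Cd3e (44998740 to 45009627, minus strand) lies beyond Cd3d, with 11401 bases between the 3′ ends of the pair. Cd3g and Cd3d were the CD3 genes with higher values in both cKO libraries, so the 250 bases upstream of each start are shown, from RefSeq promoter records (GRCm38.p6), read 5′ to 3′ on the strand of the gene. Capitals mark GGAA or its complement TTCC, the core of sites for ETS transcription factors.
Cd3g, chr9:44980432-44980681, minus strand: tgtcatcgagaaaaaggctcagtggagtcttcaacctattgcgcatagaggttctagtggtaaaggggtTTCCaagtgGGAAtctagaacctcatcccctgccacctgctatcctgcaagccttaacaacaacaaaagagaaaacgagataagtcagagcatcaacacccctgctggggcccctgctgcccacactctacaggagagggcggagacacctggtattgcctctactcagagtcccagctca
Cd3d, chr9:44981536-44981785, plus strand: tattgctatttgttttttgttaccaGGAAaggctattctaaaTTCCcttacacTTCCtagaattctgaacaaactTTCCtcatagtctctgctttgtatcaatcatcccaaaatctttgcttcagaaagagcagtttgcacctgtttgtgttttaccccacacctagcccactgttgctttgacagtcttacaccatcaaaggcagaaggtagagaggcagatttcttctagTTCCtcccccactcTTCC
The Cd3g window held 2 such cores and the Cd3d window 6, and its GC content was 51.6% against 41.2%. A core was present in 93.4% of all 32851 promoter windows of this length, with a median of 3, so its presence does not set these genes apart.

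Cd3g encodes CD3γ, which pairs with CD3ε. Its level was 31.6 and 36.4 FPKM in WT and 53 and 42.7 in cKO. Both cKO libraries were above both WT libraries, and cKO replicate 1 was the highest. The means were 34 ± 3.39 and 47.8 ± 7.3 FPKM (SD, n = 2). This gave a log2 fold change of 0.48 ± 0.14 (SE) with a limma adjusted p of 0.168. The fold change was 0.32 on the log2 scale without cKO replicate 1 and 0.63 without cKO replicate 2. The longest Cd3g transcript has 38.5% GC, in the lowest of 10 groups of tested genes by GC content. The median difference of that group from the WT mean was 0.18 in cKO replicate 1 and 0.01 in cKO replicate 2, where Cd3g had 0.63 and 0.32. After a GC correction, which used the longest transcript, its log2 fold change was 0.37 ± 0.094 (limma, adjusted p = 0.098). The principal Cd3g transcript in GENCODE M21 has 47.1% GC. The group holding that value had medians of 0.05 in cKO replicate 1 and -0.02 in cKO replicate 2. Cd3d, for the CD3δ chain that also pairs with CD3ε, had 88.3 and 89.7 FPKM in WT and 123 and 99 in cKO. The WT libraries were nearly equal and the cKO libraries higher and further apart, at 89 ± 0.961 and 111 ± 16.6 FPKM (SD, n = 2). The log2 fold change was 0.31 ± 0.13 (limma, adjusted p = 0.289), and it was 0.46 without cKO replicate 2 and 0.15 without cKO replicate 1.

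Cd3e encodes CD3ε, the chain present in both CD3 pairs. It had 21.4 and 22 FPKM in WT and 17.8 and 21.2 in cKO, so cKO replicate 2 was close to the WT level and cKO replicate 1 below it. The log2 fold change was -0.15 ± 0.11 (limma, adjusted p = 0.49). It was -0.27 without cKO replicate 2 but -0.03 without cKO replicate 1, so its size rested on cKO replicate 1. The ratio of Cd3g to Cd3e FPKM, chosen after the values were seen, was 1.48 and 1.65 in WT and 2.98 and 2.01 in cKO. The cKO ratios were both higher, and the log2 ratio averaged 0.64 ± 0.12 for WT and 1.29 ± 0.40 for cKO (SD, n = 2; exact permutation test, two-sided, p = 0.33, the lowest that 2 against 2 libraries allow). It differed by 0.36 without cKO replicate 1 and by 0.93 without cKO replicate 2.

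Cd247 (chromosome 1, 165788681 to 165877277, plus strand) encodes the ζ chain, whose tail holds more ITAMs than any CD3 chain. It had 92.4 and 93.8 FPKM in WT and 77.1 and 70.2 in cKO. Both cKO libraries were below both WT libraries, and the gap between genotypes was larger than that within either. Means were 93.1 ± 0.992 and 73.6 ± 4.86 FPKM (SD, n = 2), a log2 fold change of -0.34 ± 0.10 (limma, unadjusted p = 0.0201, adjusted p = 0.167). Both cKO libraries contributed, at -0.27 and -0.40 against the WT mean, and voom gave -0.38 ± 0.11 (adjusted p = 0.0885). After the GC correction the log2 fold change was -0.39 ± 0.071, still not past the threshold (limma, adjusted p = 0.0551). That correction used the longest transcript, with 44.4% GC, where the principal one has 52.6%. The gene body overlaps Pou2f1 on the opposite strand, which had 1.91 to 2.77 FPKM and reads equal to 8.57% of those of Cd247, and the strand setting of the counting is not given in the sources used here.

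The window upstream of Cd247 is shown for comparison with those of the CD3 genes.
Cd247, chr1:165788431-165788680, plus strand: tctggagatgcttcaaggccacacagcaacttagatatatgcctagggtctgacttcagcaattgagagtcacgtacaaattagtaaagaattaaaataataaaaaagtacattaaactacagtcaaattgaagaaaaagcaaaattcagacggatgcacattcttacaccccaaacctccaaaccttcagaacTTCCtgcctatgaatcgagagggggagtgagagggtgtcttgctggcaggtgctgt
It held a single core, on the minus strand within cttcctg, against 6 in the Cd3d window of the same GC content, 41.2%. The 4 ITAM-bearing chains were set against each other within each library, which does not depend on how the libraries were scaled. Cd247 stood at 2.37 and 2.26 times the geometric mean of the 3 CD3 genes in WT and at 1.58 and 1.57 times in cKO. The libraries of each genotype were close and the genotypes apart, by -0.55 in log2 ratio (WT 1.21 ± 0.05, cKO 0.66 ± 0.01, SD, n = 2). The exact permutation test gave its lowest p, 0.33, and the difference was -0.52 to -0.59 with any 1 library left out.

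**Figure D2:**
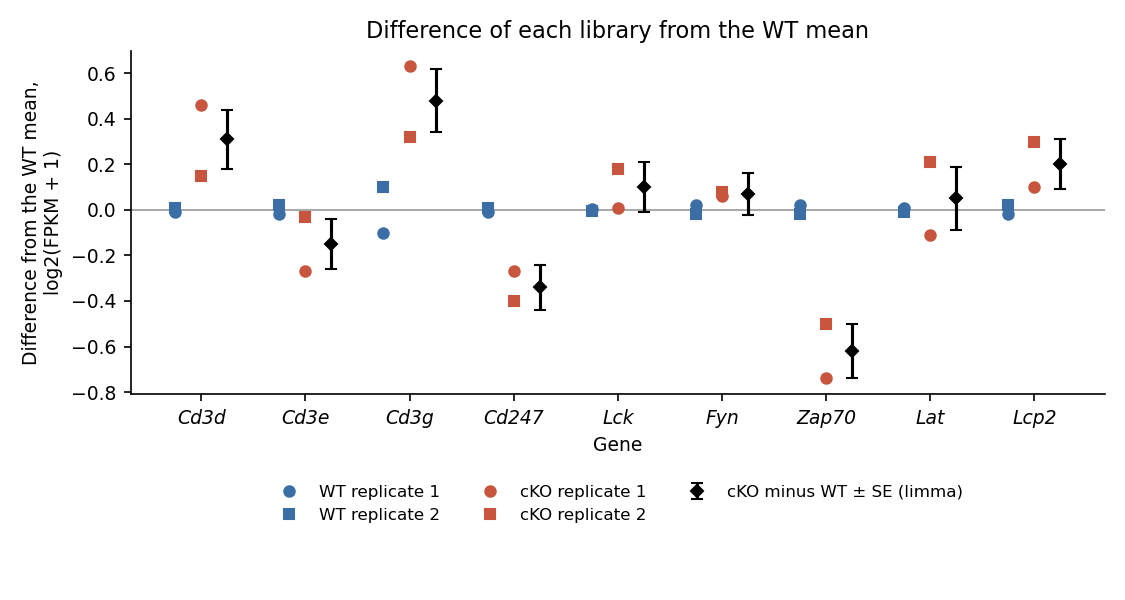
Difference of each library from the WT mean in log2(FPKM + 1) (y axis) for the 9 members (x axis), with the limma fold change, cKO minus WT, as diamonds with SE bars. Both cKO libraries of Zap70 and Cd247 lie below 0 and both of Cd3g and Cd3d above 0, while those of Lat lie on both sides.

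Among the kinases, Zap70 (chromosome 1, 36761798 to 36782818, plus strand) had the widest gap between genotypes of all 9 members. ZAP-70 is the Syk family kinase that binds phosphorylated ITAMs. The table gave 264 and 257 FPKM in WT and 156 and 184 in cKO, so the WT libraries were nearly equal and both cKO libraries well below them. The means were 260 ± 4.85 and 170 ± 19.9 FPKM (SD, n = 2), a cKO level of 0.653 times that in WT. The log2 fold change of -0.62 ± 0.12 had an unadjusted p of 0.00353, which ranked 458 among the tested genes, and an adjusted p of 0.0812 (limma), so Zap70 was not called. With all 4 libraries voom gave -0.66 ± 0.12 and called it (adjusted p = 0.0255). The voom call was lost without WT replicate 1 (-0.65 ± 0.25) or WT replicate 2 (-0.66 ± 0.25).

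Over the 17 alternative settings the log2 fold change of Zap70 stayed between -0.77 and -0.49 and the adjusted p ran from 0.0116 to 0.552 (limma). It was past the threshold in 5 of the 17, namely voom, protein-coding genes only (0.0458), a GC correction (0.0439), and without cKO replicate 1 (0.0465) or cKO replicate 2 (0.0116). It was farthest from it without WT replicate 1 (0.506) or WT replicate 2 (0.552), where the variance comes from the cKO pair and the lone WT library is taken to vary like it. Zap70 transcripts are GC-rich, at 59.6% for the longest, above 95.3% of tested genes. The tested genes were split by GC content into 10 groups, and that of Zap70 had a median difference from the WT mean of -0.30 in cKO replicate 1 and 0.02 in cKO replicate 2, whereas Zap70 had -0.74 and -0.50. After the GC correction its log2 fold change was -0.49 ± 0.080.

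RefSeq gives Zap70 several starts, and gene totals do not separate transcripts from them. The window before the first start, that of the full-length gene model, is shown with the same capitals as above.
Zap70, chr1:36761548-36761797, plus strand: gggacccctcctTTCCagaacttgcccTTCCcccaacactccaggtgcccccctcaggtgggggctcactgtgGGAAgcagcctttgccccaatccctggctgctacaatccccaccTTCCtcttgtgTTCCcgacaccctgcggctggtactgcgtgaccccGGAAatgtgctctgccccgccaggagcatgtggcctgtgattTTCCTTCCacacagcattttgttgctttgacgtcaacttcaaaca
It held 8 cores at 58.8% GC, more than the Cd247, Cd3g and Cd3d windows. The windows before the later Zap70 starts held 7 and 0 cores, and the Cd3e window held 5. Over the 12 RefSeq windows of the 9 members, 10 held a core on either strand. The longer form CAGGAAG, searched on both strands and chosen after the sequences were seen, was in 5 windows of 4 members (Zap70 at its second start, Cd247, Lck at both starts and Cd3e), and in 10.8% of all windows. These matches describe letters and do not show binding.

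**Figure D3:**
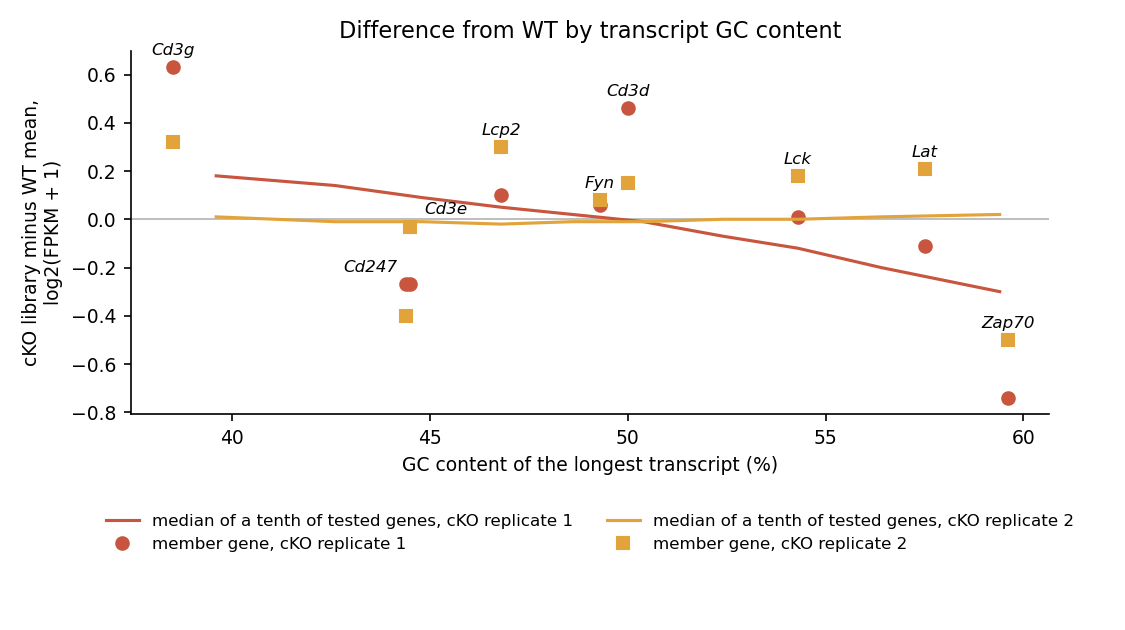
Difference of each cKO library from the WT mean in log2(FPKM + 1) (y axis) against GC content of the longest transcript (x axis, percent), with the medians of 10 groups of tested genes by GC content as a line and the 9 members as points. The line for cKO replicate 1 goes from 0.18 to -0.30 while that for cKO replicate 2 stays near 0, and Zap70 lies below both lines.

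Lck (chromosome 4, 129548344 to 129573641, minus strand) encodes the Src family kinase that sits on the CD4 and CD8 tails and phosphorylates ITAMs. It had 189 and 187 FPKM in WT and 190 and 214 in cKO. Replicate 1 of cKO was at the WT level and replicate 2 above it, with a log2 fold change of 0.10 ± 0.11 (limma, adjusted p = 0.635) that turned to -0.04 under quantile normalization. The GC group of Lck had a median difference from the WT mean of -0.12 in cKO replicate 1 and 0.00 in cKO replicate 2. After the GC correction Lck had 0.14 ± 0.079 (limma, adjusted p = 0.327). Fyn (chromosome 10, 39368855 to 39565381, plus strand), the other Src family kinase abundant in T cells, had 97.7 and 94.8 FPKM in WT and 100 and 102 in cKO. Of the 3 member kinases it varied least over the 4 libraries. Its log2 fold change was 0.07 ± 0.094 (limma, adjusted p = 0.688), and -0.02 after rescaling to TPM. The ratio of Lck to Fyn was 1.93 and 1.98 in WT and 1.89 and 2.09 in cKO, with the cKO values on either side of the WT values. The log2 ratio differed by 0.03 (exact permutation test, two-sided, p = 1), and by -0.05 without cKO replicate 2.

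The kinase that starts the cascade and the one that follows it were compared within libraries after their values were seen. Zap70 stood at 1.4 and 1.37 times Lck in WT, and at 0.821 and 0.861 times Lck in cKO, so their order was reversed in both cKO libraries. The log2 ratio differed by -0.72 (0.47 ± 0.02 and -0.25 ± 0.05, SD, n = 2), with an exact permutation p of 0.33, the lowest possible. It ranged from -0.68 to -0.75 with 1 library left out. A ratio within a library keeps the GC trend, since Zap70 and Lck lie in different GC groups. In cKO replicate 1 the median of the Zap70 group was -0.30 and that of the Lck group -0.12. After the GC correction the log2 fold changes were -0.49 for Zap70 and 0.14 for Lck.

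Lat (chromosome 7, 126363824 to 126369570, minus strand) encodes the membrane adaptor whose tyrosines ZAP-70 phosphorylates. It had 158 and 156 FPKM in WT and 145 and 182 in cKO. The cKO libraries lay on either side of the WT libraries, and their SD was 26.1 FPKM against 1.61 in WT. The log2 fold change of 0.05 ± 0.14 (limma, adjusted p = 0.848) took a negative sign after rescaling to TPM (-0.04), under quantile normalization (-0.06) and without cKO replicate 2 (-0.11). Lat is also GC-rich, at 57.5%. The median difference of its GC group from the WT mean was -0.20 in cKO replicate 1 and 0.01 in cKO replicate 2, where Lat had -0.11 and 0.21. After the GC correction the log2 fold change of Lat was 0.15 ± 0.081 (limma, adjusted p = 0.323). Lcp2 (chromosome 11, 34046920 to 34092295, plus strand) encodes SLP-76, the cytosolic adaptor held near LAT by Gads. It had 155 and 159 FPKM in WT and 168 and 193 in cKO, both higher than in WT. Its log2 fold change was 0.20 ± 0.11 (limma, adjusted p = 0.391).

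Levels of different genes are compared per length, and the length used matters for the CD3 genes. Per gene length, WT levels ran from Zap70, with the highest, through Lck, Lat with Lcp2, Fyn, Cd247, Cd3d and Cd3g to Cd3e, and among these neighbours Lat and Lcp2 were the pair whose libraries overlapped. In cKO the order opened with Lck, Lcp2, Zap70 and Lat, each overlapping the next. The deposited length of a gene covers all its annotated transcripts, and it was 4080 bases for Cd3e and 3269 for Cd3g, against 1462 and 1023 bases for their principal transcripts in GENCODE M21, a ratio of 2.79 and 3.2. For Cd247 the ratio was 3.27, for Lat 2.24 and for the other 5 members 1.12 to 1.34.

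Per kilobase of principal transcript, Cd3g had 109 ± 10.8 FPKM in WT (SD, n = 2), overlapping Cd3d at 99.9 ± 1.08, and Cd3e had 60.5 ± 1.22. On this scale the pair Cd3g and Cd3d was thus level in WT, where the deposited scale had Cd3d 89 and Cd3g 34 FPKM. Lat had 352 ± 3.61, overlapping Zap70 at 347 ± 6.46, followed by Cd247 at 304 ± 3.24 and Lck at 252 ± 1.52. In cKO, Lat had 367, Lck 270, Cd247 240 and Zap70 226, the last 2 overlapping. Reads from longer or intron-retaining transcripts remain in these values, so they are upper values for the principal form. Fold changes between genotypes do not depend on the length used, other than through the pseudocount.

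**Figure D4:**
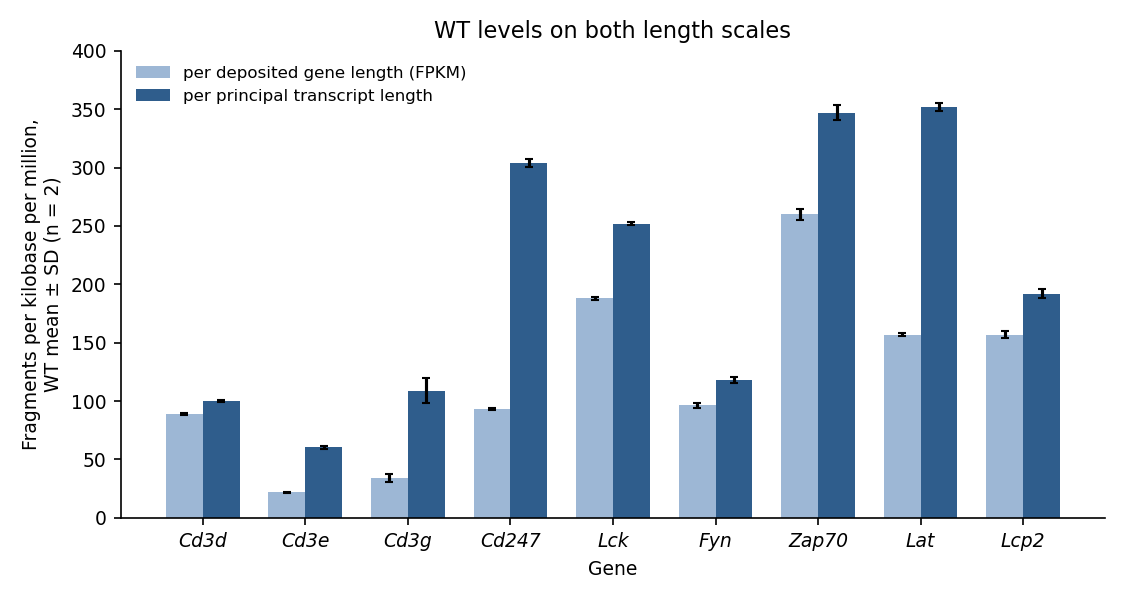
WT level of each member (x axis) in FPKM (y axis), with light bars per deposited gene length, dark bars per principal transcript length, and error bars for the SD of 2 libraries. Cd3g goes from 34 to 109 and Cd247 from 93.1 to 304 between the scales, while Cd3d goes from 89 to 99.9.

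The other genes of the pathway were taken from 4 lists with 77 genes in all, of which 61 were tested. Among them 1, Ptprj, was called higher in cKO and none lower (limma), against 0.814% and 0.256% of all tested genes. At an unadjusted p under 0.05, 14 were higher and 4 lower, against 9.56% and 10.3% of all tested genes, and voom called 7 higher and 1 lower, against 2.52% and 3.33%. Their median log2 fold change was 0.09.

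Among the T cell receptor chain and coreceptor genes, 9 of 11 were tested. limma called none. At an unadjusted p under 0.05, 6 were higher and 0 lower, against 9.56% and 10.3% of all tested genes. voom called 2 higher, Cd5 and Cd2, where it called 2.52% of all tested genes higher. Over the list the median was 0.30 in log2 fold change. Trac, the constant gene of the α chain, had 285 and 303 FPKM in WT and 261 and 287 in cKO (limma, adjusted p = 0.619). The β constant genes Trbc1 and Trbc2, near-identical copies whose reads may be split uncertainly, had adjusted p-values of 0.559 and 0.395. Cd4 had 104 and 105 FPKM in WT and 128 and 126 in cKO, with a log2 fold change of 0.28 ± 0.094 (limma, adjusted p = 0.196). Cd5, a surface receptor that restrains T cell receptor signalling, had the widest difference of the list. Its 378 and 318 FPKM in WT and 561 and 675 in cKO gave a log2 fold change of 0.83 ± 0.15 (adjusted p = 0.0734; voom, 0.0226). Cd2, an adhesion receptor of T cells named after its values were seen, had 103 and 98.9 FPKM in WT and 168 and 149 in cKO (0.65 ± 0.11, adjusted p = 0.0675; voom, 0.0233).

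In the list of related kinases and paralogs, 3 of 14 genes passed the filter, and limma called none. The paralogs used in B and myeloid cells were nearly silent. Syk, the relative of Zap70, had 0.0447 to 0.0826 FPKM over the 4 libraries, Lat2 0.12 to 0.197 and Blnk, the relative of Lcp2, 0.00822 to 0.0262.

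Of the 28 genes whose products bind LAT or SLP-76 or act in the complexes built on them, 27 were tested, with a median log2 fold change of 0.04. limma called none. At an unadjusted p under 0.05, 3 were higher and 1 lower, against 9.56% and 10.3% of all tested genes. voom called 1 higher, Sh3bp2, and 1 lower, Prkcq, against 2.52% and 3.33% of all tested genes. Sh3bp2, an adaptor of the Syk and ZAP-70 pathway, had 3.07 and 2.7 FPKM in WT and 4.72 and 5.8 in cKO (0.68 ± 0.12 in log2 fold change, limma, adjusted p = 0.0734; voom, 0.03). The 1 lower gene of this list, Prkcq, is named after its values were seen. It encodes PKCθ, which links LAT complexes to NF-κB, and had 24.6 and 27.8 FPKM in WT and 17.9 and 17.5 in cKO (-0.54 ± 0.10, adjusted p = 0.0763; voom, 0.0259).

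Of 25 regulators of proximal signalling, mostly inhibitors, 23 were tested, with a median log2 fold change of 0.07. limma called 1, Ptprj, higher, against 0.814% of all tested genes. At an unadjusted p under 0.05, 4 were higher and 3 lower, against 9.56% and 10.3% of all tested genes. voom called 3 higher, where it called 2.52% of all tested genes higher. These were Ptprj and, named after their values were seen, Crtam (voom, adjusted p = 0.0137) and Sla (0.0386). Ptprj encodes the receptor tyrosine phosphatase CD148, which acts on Lck and other proximal substrates. It had 6.85 and 5.67 FPKM in WT and 13.6 and 13.2 in cKO, higher in both cKO libraries. Its log2 fold change was 0.99 ± 0.11 (limma, adjusted p = 0.0388; voom, 0.00678). The call was lost with no filter on low values (0.172), after rescaling to TPM (0.0523) and without WT replicate 1 (0.0558), WT replicate 2 (0.153) or cKO replicate 1 (0.0505).

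**Figure D5:**
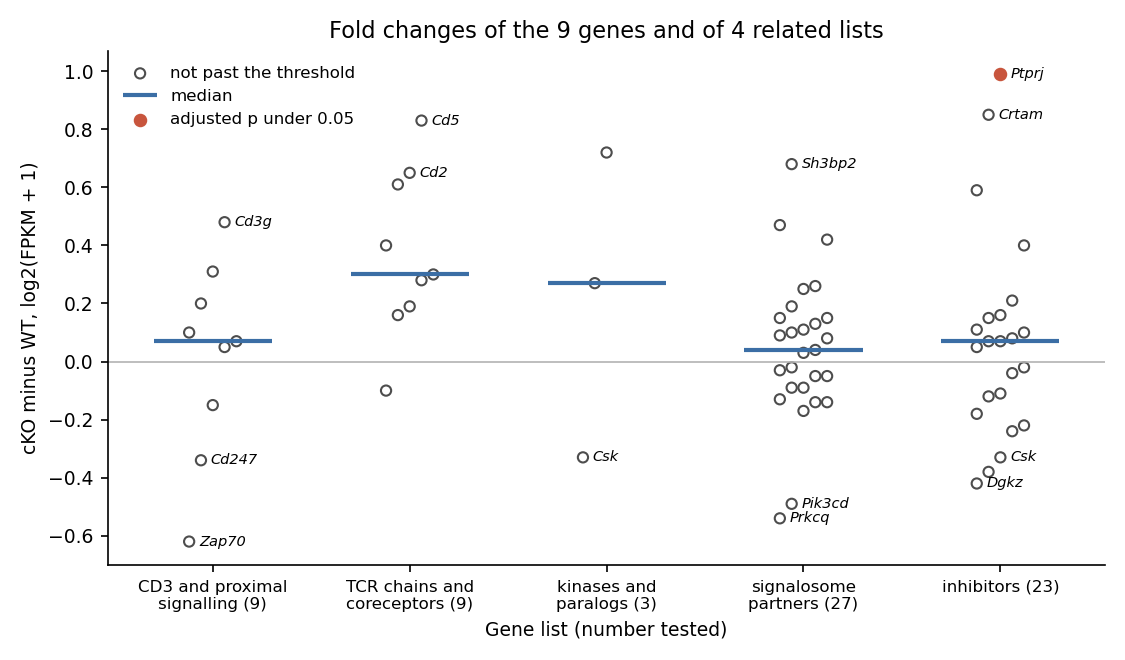
Log2 fold change, cKO minus WT, on the log2(FPKM + 1) scale (y axis) for the tested genes among the 9 members and in the 4 pathway lists (x axis), 1 point per gene, with horizontal bars at the medians. Ptprj, filled, is the gene past the limma threshold, with Cd5 high and Zap70 and Prkcq low among those not past it.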

How the data were processed

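RNA sequencing of 2 PP2A WT and 2 PP2A cKO libraries was grouped by the labels' genotype. The authors deposited FPKM per gene with a gene length, and the submitters' processing notes name GRCm38, mm10 and, for counting, featureCounts 1.5.0-p3. Not given in the sources used here are the aligner, annotation release and strand setting. FPKM times length gave whole multiples of 1 step per library, within 0.01 read, so reads could be recovered.

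Genes whose mean reached 1 FPKM were tested with limma 3.58.1 (R 4.3.3) on log2(FPKM + 1), with a variance trend, no block and two-sided Benjamini-Hochberg adjustment over all 10562 genes at 0.05. This scale understates changes of low genes. Ratios within libraries were compared by exact permutation. GENCODE M21 gave transcript lengths and GC content, and RefSeq the promoter windows.

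Named genes were the 9 members; from each pathway list up to 3 genes past the threshold per direction, or the tested gene with the largest fold change; Syk, Lat2, Blnk, Trac, Trbc1, Trbc2 and Cd4; and Ppp2ca and Ppp2r1a. A result that this rule would add is not reported here. The members and lists were chosen with earlier results of these data known. Alternatives were other pseudocounts, filters, scalings and variance settings, protein-coding genes only, a replicate block, a GC correction, voom on the recovered reads, and leaving out each library. edgeR and DESeq2 were planned for the recovered reads but were not run. The procedure was also run on simulated reads with known fold changes. Those reads had the same spread setting in every library and no GC trend, unlike the libraries here. That run therefore does not check the calls in these data.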

Additional observations from a re-analysis of the deposited data

How the results depend on the processing

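Of 153 member fold changes under the alternatives, 139 kept their direction and side of the threshold, 9 passed it in the same direction, and 5 turned sign, namely Lck under quantile normalization (-0.04), Fyn under TPM (-0.02), and Lat under TPM (-0.04), quantile normalization (-0.06) and without cKO replicate 2 (-0.11; range over the omissions -0.11 to 0.21). The number of members past the threshold, 0, became 1 by voom, 1 with protein-coding genes only and 1 with the GC correction, each time Zap70, and ran from 0 to 5 with 1 library left out. For all tested genes the 113 calls became 0 with no filter, 75 under TPM, 227 with the replicate block, 618 by voom, 500 with protein-coding genes only and 497 (257 higher, 240 lower) with the GC correction, and 55 to 3004 with 1 library left out, the most without cKO replicate 2. For the pathway lists the single call became 0 with no filter, 0 under TPM, 2 with the replicate block, 8 by voom, 8 with protein-coding genes only and 7 with the GC correction, and 0 to 23 with 1 library left out. The causes were not tested. The log2 Lck to Fyn difference ran from -0.05 to 0.10 over the omissions. Ppp2r1a turned sign with the GC correction (0.02) and over the omissions (-0.21 to 0.14), and Trbc1 under quantile normalization (-0.01). The replicate numbers are shared by label alone, and deviations of same-numbered libraries correlated at -0.093. With them as a block Zap70 had an adjusted p of 0.134. The planned edgeR and DESeq2 tests were not run. With 2 libraries per genotype, none of the 9 member differences was told from the spread by limma with adjustment over all tested genes. Those of Cd3e, Lck, Fyn, Lat and Lcp2 were farthest from the threshold (adjusted p = 0.391 to 0.848).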

Other observations

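Among 12 T cell genes outside the members, the summed level was 2467 to 2503 FPKM in WT and 3049 to 3116 in cKO. limma called none of the 12, and voom called 3 higher and 1 lower, where it called 2.52% and 3.33% of all tested genes. At an unadjusted p under 0.05 (limma) 6 were higher and 1 lower in cKO, against 9.56% and 10.3% of all tested genes, and their median log2 fold change was 0.23. For 7 of them both cKO libraries lay above both WT libraries and for 2 below, orders found in 27.2% and 28.7% of tested genes. Zap70 and Cd247 thus had a sign opposite to that of 9 genes of this list and the same sign as 3. These were Bcl11b (-0.53 in log2 fold change) and Tcf7 (-0.33), named after their values were seen, and Trac (-0.10). The list is not separate from those above, since Trac, Trbc1, Trbc2, Cd2, Cd5, Cd6, Cd28 and Cd4 are also in the receptor chain and coreceptor list. Of the 6 Th17 markers limma called none, with 1 higher and 4 lower at an unadjusted p under 0.05 and a median of -0.36, and voom called 1 higher and 1 lower.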
